A study of Mus musculus with 6 samples.

Results

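The T cell receptor variable segments were taken as the rows of the expression table whose gene symbol begins with Trav, Trbv, Trgv or Trdv. They numbered 170 of the 54532 gene rows. The alpha locus gave 128 Trav rows, the beta locus 35 Trbv rows, the gamma locus 1 Trgv row (Trgv2) and the delta locus 6 Trdv rows. A further 6 gamma variable rows carry names beginning with Tcrg-V and fall outside this choice.

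CD4 T cells taken from C57BL/6 mice, out of spleen and lymph nodes, were studied by bulk RNA sequencing of total RNA after removal of ribosomal RNA. The KO group had 3 libraries (replicates 1, 4 and 5) with the genotype label iCD4-PRMT5 delta/delta. The WT group had 3 libraries (replicates 1, 2 and 4) with the label iCD4-PRMT5fl/fl, so that the WT mice carry the floxed Prmt5 alleles. The labels name no promoter for the iCD4 element and no age. All 6 libraries share the treatment label of anti-CD3/CD28 for 48 h, while their titles say rest, and the state of the cells is therefore uncertain and common to both groups. A code in the sample descriptions places KO 1, WT 1 and WT 2 in library series 22, and KO 4, KO 5 and WT 4 in library series 24. The series' design text calls the 3 libraries of a group biological replicates. Values are robust FPM, that is fragments per gene which the authors scaled to a common library size. Sequencing depth is unknown, and the gene rows of a library summed to between 857333.5 and 954013.7 FPM.

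A T cell receptor chain gene is assembled in the thymus by joining 1 variable segment to a joining segment, with a diversity segment between them in the beta and delta loci. The joined exon is spliced to a constant gene, and most CD4 T cells carry an alpha and a beta chain. Each cell thus transcribes few of the segments it inherited. The share of each segment in the RNA of a pool of cells reflects the pool's repertoire, but it is not a count of cells. In mice the delta locus lies inside the alpha locus, and segments with dv in their names can be joined in alpha or in delta chains. The letters d and n in Trav names mark copies in duplicated blocks of the mouse alpha locus.

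The 8 Trbv segments and the 4 Trav segments with the highest mean shares of their locus sums are shown by their 3′ ends. Each line is the last 60 bases of the annotated transcript (GENCODE vM21, GRCm38), 5′ to 3′, and the capitals mark the codon of the conserved cysteine with which the most variable loop of the chain begins.
Trbv13-2: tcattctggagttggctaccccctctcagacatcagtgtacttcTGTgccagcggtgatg
Trbv13-1: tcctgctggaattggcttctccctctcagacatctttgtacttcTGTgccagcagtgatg
Trbv13-3: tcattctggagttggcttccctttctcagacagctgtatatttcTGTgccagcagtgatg
Trbv3: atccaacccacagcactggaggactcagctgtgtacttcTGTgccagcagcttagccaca
Trbv1: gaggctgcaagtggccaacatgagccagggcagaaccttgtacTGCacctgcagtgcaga
Trbv2: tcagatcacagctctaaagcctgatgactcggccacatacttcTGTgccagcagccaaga
Trbv31: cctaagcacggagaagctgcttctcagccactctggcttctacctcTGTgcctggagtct
Trbv15: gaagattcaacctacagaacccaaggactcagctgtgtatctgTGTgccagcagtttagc
Trav14-1: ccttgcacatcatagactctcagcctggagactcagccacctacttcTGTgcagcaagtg
Trav14d-3-dv8: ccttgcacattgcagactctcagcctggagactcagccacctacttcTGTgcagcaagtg
Trav14-2: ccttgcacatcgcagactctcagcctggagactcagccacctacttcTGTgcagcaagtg
Trav14n-3: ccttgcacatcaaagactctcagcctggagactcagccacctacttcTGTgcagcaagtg
The ends of the 3 Trbv13 segments differed from one another at between 8 and 10 of 60 bases. The ends of the 4 Trav14 segments differed at between 1 and 3 of 60 bases, and their letters from the cysteine codon onward were the same.

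The label of the cells was compared with marker genes. Prmt5, the targeted gene, measured 24.4, 23.8 and 21.5 FPM in KO 1, KO 4 and KO 5, against 34.9, 41.0 and 43.9 FPM in WT 1, WT 2 and WT 4. Every KO library was below every WT library, and the log2 difference of -0.78 did not pass limma over all genes (adjusted p = 1). Cd4, the co-receptor that defines these cells, ranged from 388.8 to 465.0 FPM over the 6 libraries, while Cd8a ranged from 0.2 to 2.1 FPM and Cd8b1 from 7.1 to 8.7 FPM. Gamma-delta T cell markers (Trdc, Sox13 and the 4 Tcrg-C genes) summed to between 37.1 and 52.6 FPM in KO and between 39.6 and 49.9 FPM in WT. Myeloid markers (Lyz2, Csf1r, C1qa, C1qc and Cd68) were all above 0 in every library and summed to between 360.5 and 955.8 FPM in KO, against 136.1 to 582.1 FPM in WT, and their part in the results below was not tested. A summed level for 1965 olfactory and vomeronasal receptor genes, taken as untranscribed background, was 0.295 FPM per kb of exon in WT 1 and between 0.0141 and 0.0813 FPM per kb in the other 5 libraries. WT 1 also stood apart in segment usage, as the comparison of single libraries shows.

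The 3 constant genes to which the alpha and beta segments are spliced were abundant in all libraries. Trac, the alpha constant gene, had 345.3, 375.5 and 277.0 FPM in KO 1, KO 4 and KO 5, against 279.2, 319.5 and 330.1 FPM in WT 1, WT 2 and WT 4. Trbc1, the first beta constant gene, had 395.5, 417.8 and 332.2 FPM in KO, against 274.6, 367.1 and 403.2 FPM in WT in the same order. Trbc2, the second, had 889.2, 855.4 and 682.3 FPM in KO, against 646.3, 790.5 and 842.3 FPM in WT. KO and WT overlapped for all 3, and none was called by limma over all genes. Trdc, the delta constant gene of gamma-delta T cells, ranged from 6.9 to 10.7 FPM. The 4 CD3 complex genes, whose products carry the receptor's signal, summed to between 863.3 and 1011.2 FPM in KO and between 795.0 and 1006.1 FPM in WT. Of the genes for recombination, Rag1 and Rag2 reached 3.0 and 1.3 FPM at most, both in WT 1, Dntt, which adds bases at the joins, ranged from 5.9 to 10.3 FPM, and Ptcra, the chain that pairs with beta in thymocytes, reached 0.1 FPM at most.

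The summed level of the variable segments overlapped between the groups in all 4 loci. The Trbv sum was 449.3, 450.2 and 361.9 FPM in KO 1, KO 4 and KO 5, against 318.6, 400.6 and 453.2 FPM in WT 1, WT 2 and WT 4. The lowest value was that of WT 1 and the highest that of WT 4, with the KO libraries between them. The means were 420 ± 50.7 FPM in KO and 391 ± 67.8 FPM in WT (SD, n = 3 each, exact permutation test, two-sided, p = 0.7). The Trav sum was 197.0, 209.3 and 183.1 FPM in KO, against 170.3, 184.9 and 215.0 FPM in WT in the same order. Its means were 196 ± 13.1 FPM in KO and 190 ± 22.8 FPM in WT (SD, n = 3 each, exact permutation test, two-sided, p = 0.8). The Trdv sum averaged 5.27 ± 0.404 FPM in KO and 5.20 ± 1.30 FPM in WT, and Trgv2 averaged 5.53 ± 0.950 FPM in KO and 5.57 ± 0.493 FPM in WT (SD, n = 3 each, exact permutation test, p = 1 for both). With 3 libraries against 3 the smallest p this test can give is 0.1, and adjusted over the 7 tests of sums and evenness every p was 1. In bulk RNA, fewer cells of a type and less RNA per cell cannot be told apart. The within-series differences of the Trbv and Trav sums had opposite signs in the 2 series, with KO above WT in series 22 and below it in series 24. Without WT 1, KO minus WT was -6.43 FPM for the Trbv sum and -3.48 FPM for the Trav sum, and without KO 4 the Trav difference was -0.0167 FPM, so that neither sum had a direction that held with each library left out in turn.

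The variable sum of each locus was also set against its constant genes. The Trbv sum divided by the sum of Trbc1 and Trbc2 was 0.350, 0.354 and 0.357 in KO 1, KO 4 and KO 5, against 0.346, 0.346 and 0.364 in WT 1, WT 2 and WT 4. The Trav sum divided by Trac was 0.571, 0.557 and 0.661 in KO, against 0.610, 0.579 and 0.651 in WT. Over Trdc, the Trdv sum was between 0.548 and 0.645 in KO and between 0.565 and 0.650 in WT, and over the 4 Tcrg-C genes Trgv2 was between 0.148 and 0.187 in KO and between 0.129 and 0.186 in WT. KO and WT overlapped in all 4 ratios, and the Trbv ratio had the narrowest range.

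Usage of the beta segments had a fixed leader and an even top group. Trbv13-2 (chr6:41121396-41121832, plus strand) had the highest share of the Trbv sum in every library. Its share was 11.7%, 11.5% and 11.4% in KO 1, KO 4 and KO 5, against 11.4%, 12.3% and 11.6% in WT 1, WT 2 and WT 4, with means of 11.5% ± 0.177 in KO and 11.8% ± 0.484 in WT (SD, n = 3 each). Its levels were 52.6, 51.7 and 41.1 FPM in KO, against 36.4, 49.4 and 52.5 FPM in WT. Counted per kb of exon, which allows segments of different lengths to be compared, Trbv13-2 held 13.5% of the locus and Trbv13-1 (chr6:41116007-41116468) was second with 9.39%. Trbv3 (chr6:41048290-41048828) followed with 8.13% per kb, Trbv13-3 (chr6:41130147-41130585) with 7.68% and Trbv15 (chr6:41141188-41141658) with 6.98%. Trbv1 (chr6:40891229-40891885), the segment farthest from the constant genes on its side, held 6.81% per kb, and Trbv31 (chr6:41557691-41558452), which lies beyond the constant genes on the minus strand, held 6.41%.

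In shares of fragments, which the following values are, the top group was as follows. Trbv3 had 9.90%, 9.33% and 9.67% in KO 1, KO 4 and KO 5, against 8.79%, 9.46% and 9.18% in WT 1, WT 2 and WT 4. Trbv13-1 had 8.95%, 9.02% and 7.79% in KO, against 9.04%, 8.84% and 8.72% in WT. Trbv1 had 7.23%, 7.57% and 7.60% in KO, against 5.74%, 7.51% and 7.57% in WT. Its lowest value was that of WT 1, and the other 5 libraries lay within a narrow range. Trbv2 had 6.03%, 7.04% and 7.21% in KO, against 8.29%, 6.24% and 6.99% in WT, with WT 1 highest. Trbv2 is a long row of 560 exon bases, and it moved from place 5 by fragments to place 9 per kb. Trbv31, Trbv13-3 and Trbv15 averaged 6.96% ± 0.316, 6.89% ± 0.153 and 6.20% ± 0.261 in KO, against 6.64% ± 0.705, 6.37% ± 0.655 and 6.91% ± 0.876 in WT (SD, n = 3 each). From Trbv1 down to Trbv16, whose mean was 6.13%, neighbours in the order overlapped in their library ranges, while the first 3 places were held by Trbv13-2, Trbv3 and Trbv13-1 in every library. The 3 Trbv13 segments together held 27.7%, 27.4% and 25.9% in KO, against 26.1%, 27.8% and 27.1% in WT.

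**Figure D1:**
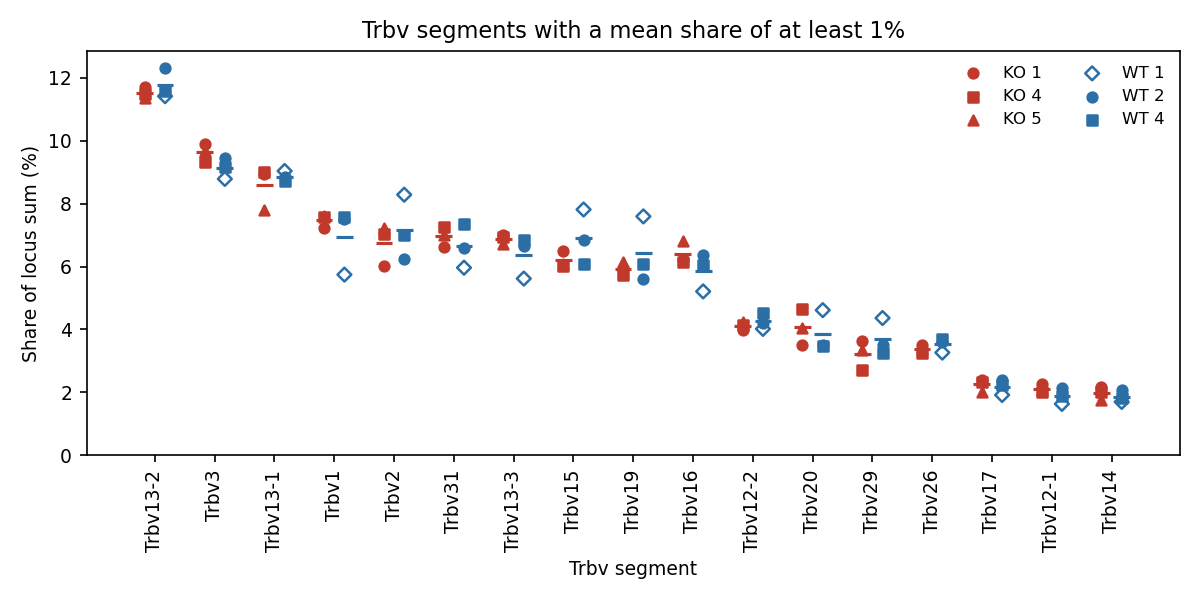
Share of the Trbv sum (percent, vertical axis) of the 17 Trbv segments with a mean share of at least 1%, ordered by mean share. Red symbols are KO 1, KO 4 and KO 5, blue symbols to their right are WT 1 (open), WT 2 and WT 4, and horizontal bars are group means. Trbv13-2 is highest in all 6 libraries, and the open symbol lies at the edge of many of the columns.

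Evenness was described by Pielou's index, which is 1 when every segment has the same share, and by the effective number of segments, which is the number of equally used segments that would give the same entropy. For Trbv the index was 0.8358, 0.8344 and 0.8385 in KO 1, KO 4 and KO 5, against 0.8390, 0.8331 and 0.8369 in WT 1, WT 2 and WT 4 (exact permutation test, p = 1, n = 3 each). The effective number was between 16.5 and 16.9 of the 29 Trbv rows seen in any library. In every library 6 segments made up 50% of the Trbv sum, and the 17 segments with a mean share of at least 1% covered 97.4% of it. For Trav the index was 0.8864, 0.8841 and 0.8854 in KO, against 0.8915, 0.8836 and 0.8875 in WT (exact permutation test, p = 0.5, n = 3 each). The effective number of Trav segments was between 53.3 and 55.2 of 90 rows seen, and between 15 and 16 segments made up 50% of the Trav sum. For Trdv, where each value rests on a few FPM, the index was 0.7259, 0.5914 and 0.6774 in KO, against 0.6825, 0.6260 and 0.7355 in WT (exact permutation test, p = 0.7, n = 3 each). All adjusted p values over the 7 tests were 1, and the groups overlapped in each index.

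The beta locus also held segments with little or no signal. Of its 13 rows annotated as pseudogenes, 6 were at 0 in all libraries, and all 13 together held 0.879% of the Trbv sum. Trbv24 was the most abundant of them, with 3.7, 2.9 and 3.1 FPM in KO 1, KO 4 and KO 5, against 1.7, 2.0 and 3.7 FPM in WT 1, WT 2 and WT 4. All 22 rows annotated as variable genes were above 0 in every library. The lowest was Trbv4 at a mean of 0.617 FPM, followed by Trbv5 at 1.02 FPM. These were the only Trbv rows annotated as genes whose exons overlap exons of another gene on the same strand. The long noncoding RNA 5830405F06Rik covers 75.1% of the exon bases of Trbv4 and 79.4% of those of Trbv5, and was itself counted at between 0.4 and 0.9 FPM. Reads in such an overlap can be dropped or assigned to either gene, depending on the counting setting, which the sources used here do not give, so the levels of Trbv4 and Trbv5 are uncertain. The ends of the 3 rows show their reading frames, with the cysteine codon in capitals as above.
Trbv24: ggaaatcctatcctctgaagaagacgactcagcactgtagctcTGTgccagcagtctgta
Trbv4: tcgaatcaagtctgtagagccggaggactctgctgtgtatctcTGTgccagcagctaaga
Trbv5: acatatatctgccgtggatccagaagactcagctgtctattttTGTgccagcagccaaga
In Trbv24 an in-frame TAG stands before the cysteine codon. In Trbv4 a TAA follows the cysteine codon in frame, at the end that is trimmed and joined during recombination. Trbv5 has neither in these bases.

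Usage of the alpha segments was spread over many more rows. Trav14-1 (chr14:53554022-53554558, plus strand) had the highest mean share, with 5.08%, 5.54% and 4.37% in KO 1, KO 4 and KO 5, against 4.87%, 4.87% and 5.26% in WT 1, WT 2 and WT 4. Trav14d-3-dv8 (chr14:53078452-53079045) came next by fragments, with 4.77%, 4.78% and 4.92% in KO, against 4.93%, 5.03% and 5.02% in WT. Its KO shares were all below its WT shares. The closest, 4.915% in KO 5 and 4.932% in WT 1, differed by no more than rounding to 0.1 FPM can produce. Trav14-2 (chr14:53640701-53641225) averaged 4.34% ± 0.144 in KO and 4.23% ± 0.284 in WT, and Trav14n-3 (chr14:53370077-53370575) averaged 4.20% ± 0.239 in KO and 3.83% ± 0.238 in WT (SD, n = 3 each). Trav14-3 averaged 4.06% ± 0.127 in KO and 3.64% ± 0.407 in WT. Per kb of exon the same 5 Trav14 rows were among the first 6 places, with Trav14-1 at 4.80% and Trav14d-3-dv8, a row of 456 exon bases, in place 4 at 4.13%. The whole Trav14 family of 9 rows held 22.6%, 23.1% and 21.5% in KO, against 21.1%, 22% and 22% in WT. The next families were Trav6 with a mean of 10.1%, Trav7 with 10.1% and Trav13 with 9.03%.

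Another 3 rows complete the first 8 places of the alpha locus by fragments. Trav4-4-dv10 averaged 3.86% ± 0.278 in KO and 3.62% ± 0.527 in WT (SD, n = 3 each). Trav13-1 had 3.35%, 3.82% and 3.49% in KO 1, KO 4 and KO 5, against 2.11%, 3.35% and 3.49% in WT 1, WT 2 and WT 4, with WT 1 apart from the other 5. Trav7-4 averaged 2.72% ± 0.0596 in KO and 2.97% ± 0.330 in WT (SD, n = 3 each). The 34 Trav rows with a mean share of at least 1% covered 77.3% of the Trav sum. Of the 20 Trav rows annotated as pseudogenes, only Trav8-2 reached such a share, and all 20 together held 2.71%.

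**Figure D2:**
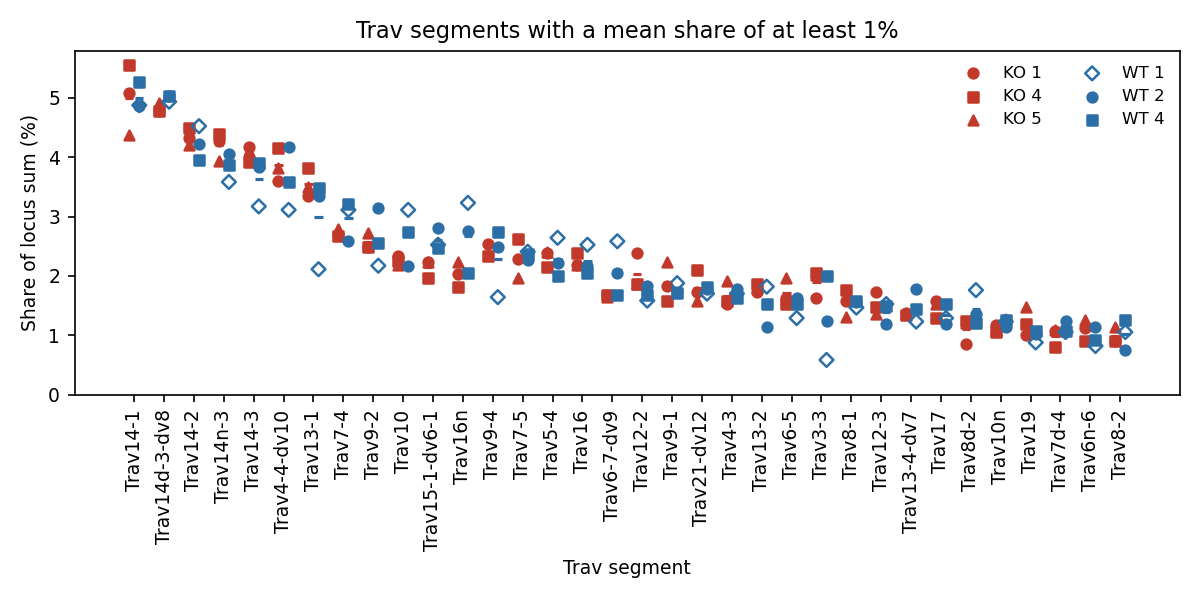
Share of the Trav sum (percent, vertical axis) of the 34 Trav segments with a mean share of at least 1%, ordered by mean share. Red symbols are KO 1, KO 4 and KO 5, blue symbols to their right are WT 1 (open), WT 2 and WT 4, and horizontal bars are group means. The first 5 places are Trav14 segments, and WT 1 lies low in Trav13-1 and Trav3-3.

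Trav1 and Trav11 give the alpha chains of MAIT cells and of invariant NKT cells, small T cell populations with nearly fixed receptors. Trav1 had 1.3, 0.7 and 0.8 FPM in KO 1, KO 4 and KO 5, against 0.7, 1.1 and 0.9 FPM in WT 1, WT 2 and WT 4, which is 0.476% of the Trav sum on average. Trav11 had 0.2, 0.2 and 0 FPM in KO, against 0, 0.1 and 0.1 FPM in WT, and Trav11d reached 0.1 FPM at most. Trav11n, which is annotated as a pseudogene, had 0.4, 0.8 and 0.5 FPM in KO, against 0.9, 0.5 and 0.5 FPM in WT. The NKT markers Zbtb16, Klrb1c and Cd1d1, the last of which other cells also express, summed to between 77.3 and 86.4 FPM in KO and between 63.4 and 90.0 FPM in WT. The low Trav11 and Trav11d values need not mean low use of these segments, whose rows have no unique sequence as defined next.

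Trav rows without unique sequence were mostly at 0. Each row's transcripts were divided into words of 50 bases, and the share of words found in no other variable row was counted. Of the 128 Trav rows, 39 had no unique word, and 34 of these were at 0 in all 6 libraries, with the highest mean among the 39 at 0.1 FPM. Of the 18 rows with up to 25% unique words, 4 were at 0 in all libraries. None of the 71 rows with more than 25% unique words was at 0 in all libraries. Above that the level did not rise with uniqueness, with a median of 3.0 FPM in the 17 rows with more than 25% and up to 50% unique words and of 1.62 FPM in the 54 rows with more than 50%. These counts describe rows that share sequence, and reads that match several rows equally are often left out of gene counts. The sources used here do not say whether they were left out of these counts. A value of 0 in a row without unique words therefore need not mean that the segment was unused. The shares, evenness and effective number of Trav segments rest on the same counts and carry the same limit.

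**Figure D3:**
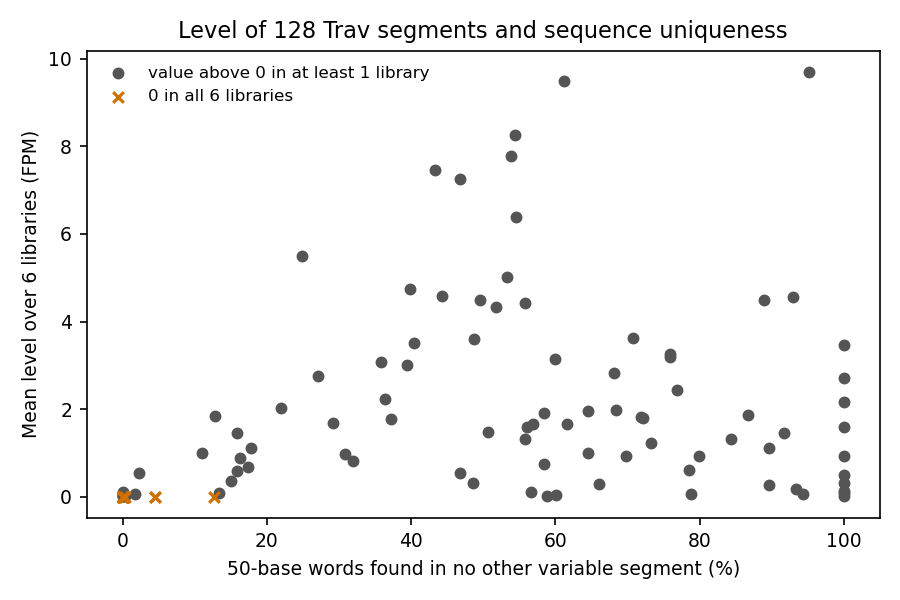
Mean level over the 6 libraries (FPM, vertical axis) of each of the 128 Trav rows against the percentage of its 50-base words found in no other variable segment. Crosses are the 38 rows at 0 in all libraries, and they all lie below 25% unique words.

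The duplicated copies carried most of the zeros. Of the 39 rows with d in the name, 18 were at 0 in all libraries, as were 18 of the 34 rows with n, against 2 of the 55 rows with neither letter. By share of the Trav sum the d rows held 13.2%, the n rows 14.0% and the rows with neither 72.8%. Copies of 3 segments show this beside their sequences, each given as 60 bases of the transcript, with capitals for bases that differ from the first of the set.
Trav14-1: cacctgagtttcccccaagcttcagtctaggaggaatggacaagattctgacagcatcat
Trav14d-1: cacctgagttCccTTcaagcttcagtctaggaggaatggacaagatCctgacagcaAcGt
Trav14n-1: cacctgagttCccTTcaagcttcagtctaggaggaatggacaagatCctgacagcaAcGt
Trav14-2: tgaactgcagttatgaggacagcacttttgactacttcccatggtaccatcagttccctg
Trav14d-2: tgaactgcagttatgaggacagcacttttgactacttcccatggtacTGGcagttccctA
Trav14n-2: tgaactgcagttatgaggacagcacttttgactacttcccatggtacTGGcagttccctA
Trav11n: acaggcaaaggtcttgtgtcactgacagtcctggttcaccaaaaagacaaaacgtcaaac
Trav11: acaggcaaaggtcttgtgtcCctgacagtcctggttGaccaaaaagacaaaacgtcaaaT
Trav11d: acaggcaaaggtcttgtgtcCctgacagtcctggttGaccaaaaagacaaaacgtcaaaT
Trav14-1 differed from Trav14d-1 and Trav14n-1 at 19 of 399 bases compared. Trav14-1 averaged 9.70 FPM, whereas Trav14d-1 was at 0 and Trav14n-1 averaged 0.0167 FPM. Trav14-2 differed from its d and n copies at 9 of 387 bases, and it averaged 8.27 FPM while both copies were at 0. Trav11n, the pseudogene row, differed from Trav11 and Trav11d at 8 of 342 bases and averaged 0.600 FPM, against 0.1 FPM for Trav11 and 0.0333 FPM for Trav11d. In each set the rows at or near 0 have no unique word, and the row that was counted has between 54.4% and 95.1% unique words.

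Rearrangement of the alpha locus is known to proceed in rounds that reach variable segments ever farther from the constant gene. In these libraries the share of the Trav sum per window fell with distance from the constant gene, and its link to such rounds was not tested. The rows lie between 243 and 1792 kb upstream of Trac and were divided into 4 windows of equal width, a division made after the values had been seen. The window nearest Trac held 29 rows, none of them at 0 in all libraries, and 41.2% of the Trav sum on average. The second window held 36.7% in 40 rows, of which 16 were at 0 in all libraries. The third held 12.9% in 41 rows, of which 22 were at 0 in all libraries, and the farthest 9.17% in 18 rows. Rows with more than 50% unique words numbered 23, 13, 6 and 12 from the nearest window to the farthest, and their median levels were 2.15, 1.87, 1.72 and 1.17 FPM. Of the sum of such rows, the nearest window held 41.6% to 45.1% over the libraries and the second 31.2% to 34.4%. The third held 12.8% to 14.2% and the farthest 8.72% to 12.5%. The windows differ in their numbers of rows and of zeros, so a share per window is not a level per row.

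The share of the nearest window was 41.7%, 42.3% and 42.5% in KO 1, KO 4 and KO 5, against 38.9%, 40.5% and 41.1% in WT 1, WT 2 and WT 4. Every KO library was above every WT library. With rows of more than 50% unique words alone it was 43.7%, 43.5% and 45.1% in KO, against 42.1%, 41.6% and 43.1% in WT, also without overlap, and in both counts WT 1 was not the closest WT library to KO. The third window was lower in KO, with 12.3%, 12.3% and 12.9%, against 13.4%, 13.3% and 13.3% in WT, and with rows of more than 50% unique words alone the groups overlapped. These differences were not tested, since the windows were chosen on these values and shares of windows depend on each other.

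**Figure D4:**
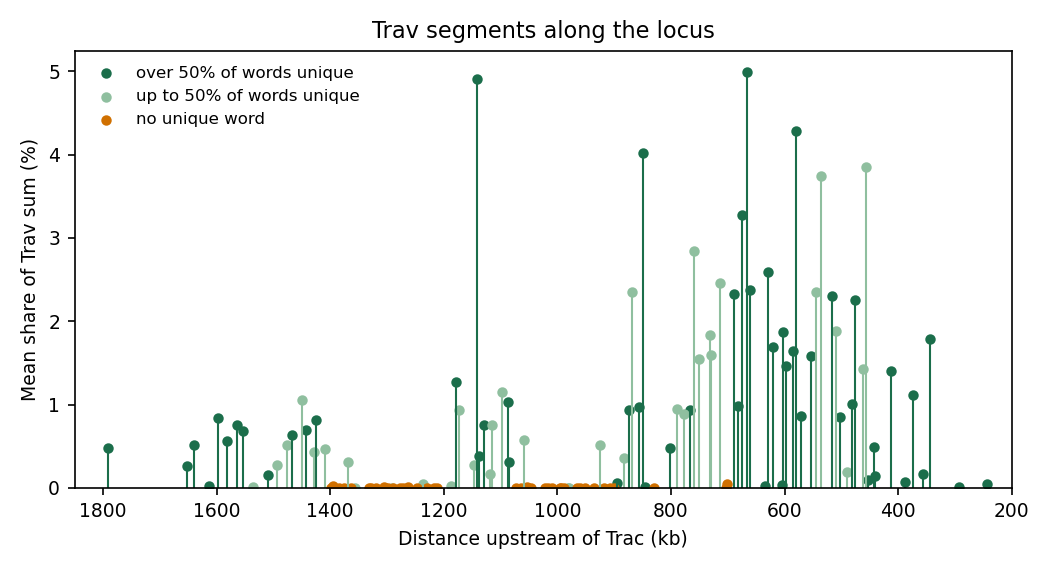
Mean share of the Trav sum over the 6 libraries (percent, vertical axis) of each Trav row against its distance upstream of Trac (kb, decreasing to the right). Colours give the share of unique 50-base words, and the rows with no unique word lie along 0 between the taller rows.

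Usage was compared between single libraries with a dissimilarity, the percentage of the locus sum that would have to be moved from some segments to others to turn one library's shares into another's. For Trbv, the 5 pairs that include WT 1 had values of 7.44% to 8.10%, and the 10 pairs without it had 2.18% to 4.08%. For Trav, pairs with WT 1 had 10.5% to 12.2% and pairs without it 5.58% to 8.50%. WT 1 thus stood apart from all other libraries in both loci, from the 2 other WT libraries as well as from KO. After subtraction of the background per kb, which was highest in WT 1, pairs with WT 1 still had 7.41% to 8.01% for Trbv and 10.7% to 12.4% for Trav. WT 1 was the highest or the lowest library in 13 of the 17 Trbv segments and in 19 of the 34 Trav segments with a mean share of at least 1%. Each other library was so in 2 to 7 of these Trbv segments and in 7 to 13 of these Trav segments.

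Without WT 1, genotype did not order the pairs. For Trbv the 6 KO against WT pairs without WT 1 had 2.18% to 4.08%, and the 3 pairs within KO had 3.15% to 3.97%. Library series did order these Trbv pairs. The 4 pairs of the same series had 2.18% to 3.15% and the 6 pairs of different series 3.30% to 4.08%. The pairs of WT 1 did not follow this order. WT 1 was at 8.10% from KO 1 and 8.03% from WT 2 of its own series, against 7.44% to 7.94% from the libraries of series 24. The order by series was not tested. KO 1 and WT 2 of series 22 were the closest pair, and KO 4 and WT 4 of series 24 the next at 2.32%. For Trav the pairs of the same series had 6.42% to 7.52% and those of different series 5.58% to 8.50%, which overlap.

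**Figure D5:**
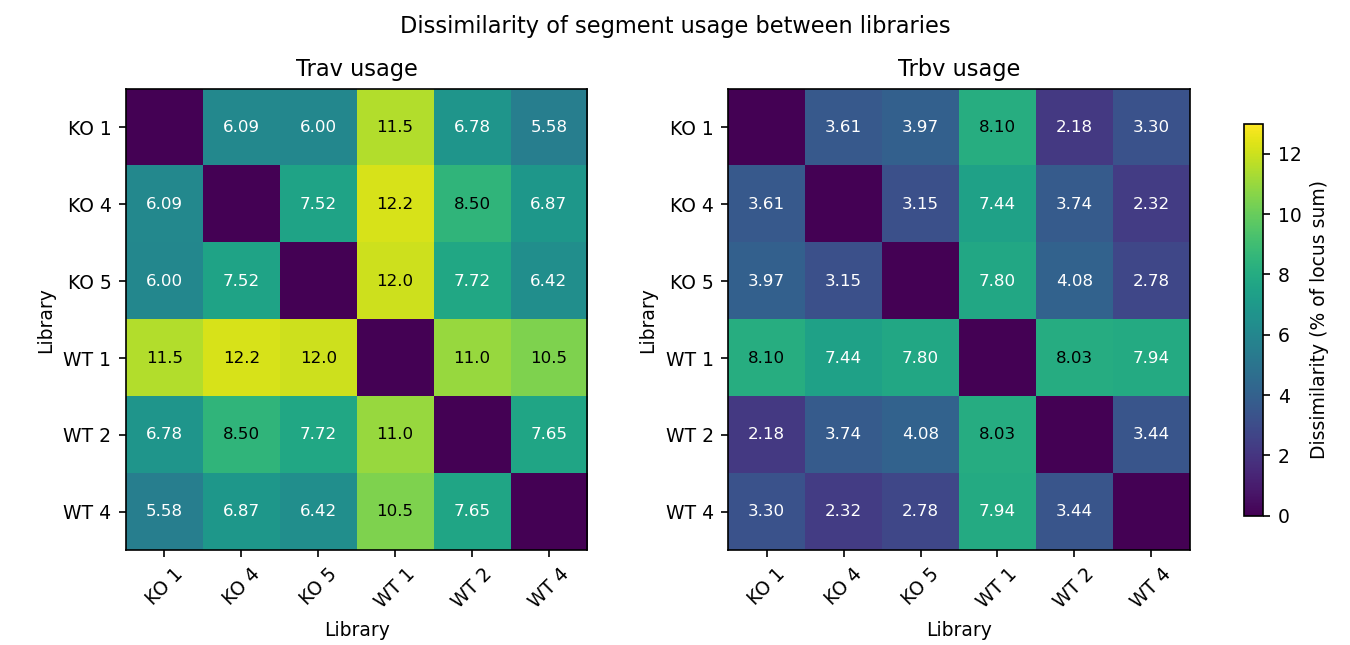
Dissimilarity of segment usage (percent of the locus sum) for each pair of libraries, Trav on the left and Trbv on the right, with KO libraries before WT libraries on both axes. The row and column of WT 1 hold the highest values in both panels, between 10.5 and 12.2 for Trav and between 7.44 and 8.10 for Trbv.

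For Trbv, the spread of single shares over the 6 libraries was also lowest with WT 1 left out. The median coefficient of variation over segments with a mean share of at least 1% was 9.29% for Trbv, 5.25% without WT 1 and between 9.0% and 10.4% without any other library. For Trav it was 12.4%, with 10.4% without WT 1, 10.6% without WT 2 and between 11.7% and 13.7% without any other library. Among Trbv segments the most variable were Trbv29 with 15.6% and Trbv20 with 14.2%, and the least variable were Trbv13-2 with 3.06% and Trbv3 with 4.15%. Trbv29 had shares of 3.63%, 2.71% and 3.34% in KO 1, KO 4 and KO 5, against 4.36%, 3.49% and 3.24% in WT 1, WT 2 and WT 4. Among Trav segments the most variable were Trav3-3 with 36.7% and Trav8d-2 with 22.9%, and the least variable were Trav14d-3-dv8 with 2.31% and Trav14-2 with 4.90%. Segments at lower levels have fewer reads behind them, and counting error alone gives them a wider spread, by an amount that cannot be computed without the depth.

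Signal was low over gamma and delta segments, which belong to gamma-delta T cells, a lineage other than CD4 T cells. Trgv2 (chr13:19336573-19337167, minus strand) had 6.5, 5.5 and 4.6 FPM in KO 1, KO 4 and KO 5, against 5.9, 5.8 and 5.0 FPM in WT 1, WT 2 and WT 4. Trdv2-2 (chr14:53960944-53961602) had 2.7, 2.2 and 2.4 FPM in KO, against 2.2, 2.4 and 2.8 FPM in WT. Trdv1 (chr14:53881612-53882217) had 1.7, 2.2 and 1.8 FPM in KO, against 1.0, 2.1 and 2.2 FPM in WT. The groups overlapped for all 3. Of the Trdv sum, Trdv2-2 held 47.3% and Trdv1 34.9% on average, and the third, Trdv5, held 7.71% at a mean of 0.417 FPM. Trdv2-1, of whose words 47.1% are unique, was at 0.1 FPM in every library. The 6 Tcrg-V rows summed to 9.5, 6.8 and 6.3 FPM in KO, against 5.4, 10.4 and 9.5 FPM in WT.

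The sums of the joining and diversity segments of the alpha and beta loci also overlapped between the groups. The 60 Traj rows summed to 325.6, 367.8 and 442.0 FPM in KO 1, KO 4 and KO 5, against 382.0, 368.8 and 431.6 FPM in WT 1, WT 2 and WT 4. The 14 Trbj rows summed to 113.5, 167.7 and 139.8 FPM in KO, against 87.2, 106.9 and 160.6 FPM in WT. The 2 Trbd rows summed to between 20.3 and 23.9 FPM in KO and between 14.5 and 23.7 FPM in WT. In the gamma and delta loci the sums were low. The 4 Trgj rows summed to 1.7, 1.6 and 1.7 FPM in KO, against 1.7, 1.9 and 2.1 FPM in WT, where the groups meet at a tie. The 2 Trdj rows summed to between 0.7 and 1.2 FPM in KO and between 0.7 and 1.5 FPM in WT, and the 2 Trdd rows to at most 0.1 FPM in KO and 0.2 FPM in WT.

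The comparison of genotypes was then made segment by segment, as part of a limma fit over all genes with a mean of at least 1 FPM, with library series as a term. Of the 170 variable rows, 80 entered it, of which 55 were Trav, 22 Trbv, 1 Trgv and 2 Trdv. Another 44 rows were at 0 in all libraries, and 105 were above 0 in all. None of the 80 was called at an adjusted p below 0.05, where limma called 0.0% of all 14944 genes, and none of the 80 had an unadjusted p below 0.05, against 0.248% of all genes (37). The smallest unadjusted p among the 80 was 0.189. Over all genes the proportion of p below 0.05 was itself far under 0.05, and Prmt5, the targeted gene, was not called. The fit was thus conservative here, and the lack of calls does not show that the segments were unchanged. The log2 differences of the 80 rows ran from -0.35 to 0.38 with a median of 0.02, against a median of 0.01 over all genes tested, and 47 were positive and 33 negative.

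The segments of smallest p were in the alpha locus. Trav12-2 had 4.7, 3.9 and 3.4 FPM in KO 1, KO 4 and KO 5, against 2.7, 3.4 and 3.6 FPM in WT 1, WT 2 and WT 4 (log2 difference 0.29, SE 0.22, limma adjusted p = 1). Trav12-1 had 2.2, 2.2 and 2.3 FPM in KO, against 1.2, 1.5 and 2.0 FPM in WT, and did not overlap (0.34, SE 0.27). Trav3-3 had 3.2, 4.3 and 3.7 FPM in KO, against 1.0, 2.3 and 4.3 FPM in WT, with WT 1 far below WT 4 (0.38, SE 0.33). With lower levels in KO, Trav16n had 4.0, 3.8 and 4.1 FPM in KO, against 5.5, 5.1 and 4.4 FPM in WT (-0.25, SE 0.18), without overlap. Trav8d-2 had 1.7, 2.6 and 2.2 FPM in KO, against 3.0, 2.5 and 2.6 FPM in WT (-0.33, SE 0.25). Trav7-3 had 1.5, 1.3 and 1.3 FPM in KO, against 2.0, 2.3 and 1.7 FPM in WT (-0.35, SE 0.28), without overlap. The limma adjusted p was 1 for each of the 6 segments. Single libraries moved these differences by over 1.5 times. Without KO 1 the log2 difference was 0.01 for Trav12-2, 0.14 for Trav12-1, -0.10 for Trav3-3, -0.14 for Trav16n and -0.10 for Trav8d-2. Without WT 1 it was 0.19 for Trav12-2 and 0.12 for Trav3-3. Without WT 4 it was 0.56 for Trav12-2, 0.55 for Trav12-1, 0.85 for Trav3-3 and -0.56 for Trav8d-2. Trav7-3 stayed between -0.40 and -0.29 with each library left out in turn.

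Counted without a model, the levels of 5 of the 80 tested rows (6.25%) did not overlap between KO and WT, where 2.88% of all genes tested did not. Trav12-1 was higher in KO, and Trav16n, Trav6-7-dv9, Trav7-3 and Trav6n-5 were lower. In shares of the locus sum, 4 of the 34 Trav segments with a mean share of at least 1% did not overlap. Of all 14944 genes tested, 653 (4.37%) did not when expressed as shares of the library sum, which is another denominator. Of the 4 segments, Trav14-3 and Trav12-2 were higher in KO, and Trav14d-3-dv8 and Trav15-1-dv6-1 were lower. The closest shares of Trav14-3 were 3.918% in KO 4 and 3.907% in WT 4. Those of Trav12-2 were 1.857% in KO 5 and 1.839% in WT 2, and those of Trav14d-3-dv8 were 4.915% in KO 5 and 4.932% in WT 1. Rounding of the values to steps of 0.1 FPM can produce gaps of this size, so only Trav15-1-dv6-1 was clearly apart. The Trav count was 9 without KO 1, 6 without KO 4, 7 without KO 5, 8 without WT 1, 10 without WT 2 and 8 without WT 4, where 2 libraries face 3 and overlap is rarer by construction. Of the 17 Trbv segments, 0 did not overlap, and between 1 and 3 with a library left out. Among families with a mean share of at least 1%, 2 of 16 in Trav and 0 of 14 in Trbv did not overlap. The Trav12 share was higher in KO, with 5.33%, 4.63% and 4.64% in KO 1, KO 4 and KO 5, against 3.93%, 3.95% and 4.19% in WT 1, WT 2 and WT 4. The Trav7 share was lower in KO, with 9.90%, 9.79% and 9.28%, against 11.3%, 10.1% and 10.0% in WT. No test was made of these shares, which depend on each other. Libraries that differ only at random separate fully, 3 against 3, with a probability of 0.1, so these counts are not read as a genotype difference.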

How the data were processed

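The authors deposited one table of robust FPM values (scaled fragments, treated here as RPM), rounded to 1 decimal, for CD4 T cell RNA libraries. GRCm38.p3 is the build in the submitters' processing notes, which list the tools DESeq, DESeq2, featureCounts and STAR without roles or versions. Per the labels' protocols, libraries were strand-specific and ribosomal RNA was removed. The sources used here do not say how multi-mapping or overlapping reads were counted, or whether strand was used. A further 6 columns of values matched no sample and were not used. Of 54624 rows, 92 were ERCC spike-ins, which were left out.

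Segments were matched by versioned identifier to GENCODE vM21 (all 170). A share is a row's value over the sum of its locus in that library. The limma fit (limma 3.58.1, R 4.3.3) used log2(value + 0.5), which understates changes of low genes, with a mean of at least 1, library series and genotype, a mean-variance trend, and Benjamini-Hochberg adjustment over all genes. Sums and evenness were compared by exact permutation tests (scipy 1.17.1). Trgv has 1 row and hence no evenness, so 7 tests were adjusted together in place of the 8 planned. The fit was tested on simulated data, and the permutation test, the evenness and the effective number on small inputs with known answers. Depth is unknown, so no counting interval is given.

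Named segments were the 8 of highest share in Trav and in Trbv, the 3 of highest share in Trdv with Trgv2, the 3 of smallest p in each direction, the 2 of largest and of smallest variation in Trav and in Trbv, Trav1, Trav11 and Trav11d. Trbv4, Trbv5, Trbv24, Trav8-2, Trav11n, Trdv2-1, the copies of Trav14 and the segments without overlap were added after their values were seen. The result of 1 marker list is not reported here. Members, lists and tests were chosen with earlier results of these data known. Plots came from Python 3.11.15 and matplotlib 3.10.9.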

Additional observations from a re-analysis of the deposited data

Results flagged for a closer look

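In 4 measures the KO libraries lay on opposite sides of the WT libraries in the 2 library series; these differences between series were not tested, and series 22 has 1 KO library and series 24 has 1 WT library. The KO minus WT difference of the Trav sum was 19.4 FPM in series 22 and -18.8 FPM in series 24. That of the Trbv sum was 89.7 FPM in series 22 and -47.15 FPM in series 24. That of the Trdv sum was 1.15 FPM in series 22 and -1.45 FPM in series 24. The evenness of Trdv differed by 0.0716 in series 22 and by -0.101 in series 24.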

How the results depend on the processing

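No segment was called under any of the 15 other settings of the limma fit, and 0 genes were called in 14 of them. With the replicate number as a block, 5 genes were called, and the labels do not say that equal numbers pair the libraries, of which only numbers 1 and 4 are shared; with the block the Trgv sum differed by 0.55 FPM. Of 129 alternative values for the 6 named segments and 3 constant genes, 120 kept their direction and 9 did not, with a lowest limma adjusted p of 0.65. ERCC scaling turned the log2 change of Trac to -0.132, of Trbc1 to -0.118 and of Trbc2 to -0.133, and the differences in the Trav, Trbv and Trdv sums to -29.7, -39.7 and -0.797 FPM. Total-sum scaling turned the Trgv difference to 0.121 FPM. Subtraction of background turned it to 0.00816 FPM, and the evenness differences of Trav, Trbv and Trdv to 0.000958, 0.00127 and 0.0353. With rows of a mean of at least 0.5 the Trbv and Trdv evenness differences were 0.000702 and 0.0217. The lowest exact permutation p over the settings with all libraries was 0.3, for the Trav evenness per kb of exon. With a library left out the lowest was 0.2, for the Trav evenness without WT 2, where all KO libraries lay below WT 1 and WT 4. That is the smallest p that 3 against 2 can give. The cause of the reversals was not tested. The count of Trav shares without overlap was 2 of 16 for families and 2 of 33 for segments per kb.

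With 1 library left out at a time, the difference in sum ran from -3.48 to 18.9 FPM for Trav, from -6.43 to 60.9 FPM for Trbv, from -0.517 to 0.433 FPM for Trgv and from -0.583 to 0.717 FPM for Trdv. The evenness difference ran from -0.00418 to -0.000245 for Trav, from -0.00171 to 0.00122 for Trbv and from -0.0469 to 0.0203 for Trdv. The log2 change ran from -0.0963 to 0.852 for Trav3-3, from 0.0149 to 0.558 for Trav12-2, from 0.137 to 0.55 for Trav12-1, from -0.365 to -0.14 for Trav16n, from -0.559 to -0.0997 for Trav8d-2, from -0.404 to -0.29 for Trav7-3, from -0.0335 to 0.209 for Trac, from -0.114 to 0.316 for Trbc1 and from -0.141 to 0.315 for Trbc2, and the negative values of Trav3-3 and Trac were those without KO 1. The count of shares without overlap ran from 6 to 10 for Trav and from 1 to 3 for Trbv, and the median coefficient of variation from 10.4% to 13.7% for Trav and from 5.25% to 10.4% for Trbv, both lowest without WT 1. Depth is unknown, and values have steps of 0.1 FPM, which are coarse for the low Trgv and Trdv rows and for close shares of Trav segments. Leave-one-out values, and background subtraction for the spread, were added after seeing the data for shares and spread, as was evenness over Trav rows with more than 50% unique words.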
